A study of Mus musculus with 12 samples.

Results

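The comparison described here is the response of total mRNA to 2 h of Torin1, an inhibitor of the kinase mTOR, in mouse cortical neural progenitor cells. It rests on 6 of the 12 libraries of the series, chosen by their labels: 3 total mRNA libraries of cells given 250 nM Torin1 and 3 of cells given DMSO, the solvent. All groups were wild-type progenitors of the embryonic cortex (E13.5) kept overnight with EGF and bFGF at 5 ng/ml each, and all received cycloheximide at 100 ug/ml for 5 min before lysis, so the controls carry that translation block too. The total sample is the 10% of lysate set aside before the sucrose gradient. The other 6 libraries hold the mRNAs of the same 2 treatments that carried more than 3 ribosomes. Of 53351 genes in the table, 20240 were tested.

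mTOR is the kinase of 2 complexes, mTORC1 and mTORC2. mTORC1 reads growth factors and amino acids and drives protein synthesis, ribosome production and the amino acid and lipid programmes of ATF4 and SREBP, and it restrains autophagy and lysosome genes. mTORC2 activates AKT, which keeps FOXO transcription factors out of the nucleus, and S6 kinase downstream of mTORC1 holds insulin receptor substrates in check. Torin1 blocks the catalytic site of the kinase and so acts on both complexes.

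The values are abundances on a parts-per-million scale of each library (ppm) and do not count reads. Their depth is unknown, and levels are compared only within a gene. Column totals of the 6 libraries, as deposited, ran from 14341674 to 18271497. One library stood apart. Torin1 replicate 2 held far more RNA of kinds that lack a poly(A) tail than the other 5. Rn7sk, a noncoding RNA that regulates transcription elongation, stood at 38.6, 59.8 and 183 ppm in DMSO replicates 1, 2 and 3 and at 81.4, 2090 and 40.9 ppm in Torin1 replicates 1, 2 and 3, the order used throughout. Rmrp, the RNA of a processing endonuclease, reached 2327 ppm in that library against 1.25 to 115 ppm in the others. The clustered histone genes, whose mRNAs end in a stem loop, summed to 1195 ppm there and to 509 to 538 ppm in the other 5 libraries. DMSO replicate 3 had the next highest Rn7sk and Rmrp. The counts over all genes are therefore also given without Torin1 replicate 2. For the gene lists, counts that moved by over 1.5 times with a library left out carry that range, or the calls that were lost are named. The part of Torin1 replicate 2 in any single gene's result was measured only by leaving it out.

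**Figure D1:**
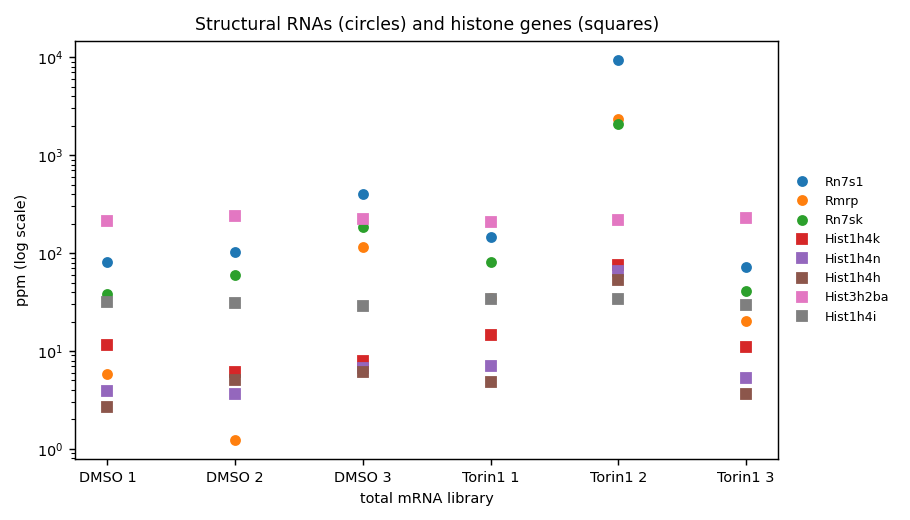
Abundance in ppm on a log axis (vertical) of 3 structural RNAs (circles) and 5 clustered histone genes (squares) in each of the 6 total mRNA libraries (horizontal). In Torin1 replicate 2 the 3 structural RNAs lie between 2090 and 9439 ppm while Hist3h2ba and Hist1h4i stay level with the other libraries.

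After 2 h, 669 genes were higher and 844 lower with Torin1 (limma, adjusted p under 0.05), which is 3.31% and 4.17% of the genes tested. At 1.5-fold or more there were 390 rises and 265 falls, and at 2-fold or more 173 and 67. Genes under 8 ppm, where standard errors are wide and only larger folds pass, made up 249 of the rises and 136 of the falls. Of the 9453 genes at 8 ppm or more 420 were higher and 708 lower, with median log2 folds of 0.51 and -0.42. At least 1.5-fold changes were seen in 158 and 149 of them. The counts of the gene lists below are to be read beside these numbers and the 3.31% and 4.17% above. A count near them is no result about its list. Over all levels the median log2 fold was 0.66 among the higher genes and -0.47 among the lower, beside -0.0016 over all genes tested. The higher genes together made up 21624 ppm in DMSO and 30247 ppm with Torin1, and the lower genes 38429 and 29169 ppm. In these bulk samples fewer cells of a type and less RNA per cell cannot be told apart, and the values are relative, so a change in the RNA of the whole cell was not measured.

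Without Torin1 replicate 2 the counts were 358 higher and 428 lower (1.77% and 2.11%). Of these, 343 and 399 were among the calls of the full comparison. All 669 and 844 genes kept their direction. For 669 and 842 of them every Torin1 library lay on one side of every DMSO library, so leaving 1 out could not turn the sign. Of all genes tested 33.3% had groups apart in this way, 3128 above and 3619 below. Leaving out any other single library gave 327 to 384 higher and 364 to 489 lower. Scaling to the column total alone gave 329 and 512, and scaling to the upper quartile gave 784 and 588, so that 57.1% of calls were rises in place of 44.2%. Calls were most frequent at middle levels: 12.8% of genes between 8 and 32 ppm were called, against 1.58% under 1 ppm, where the median standard error was 0.62 on the log2 scale. The labels call the 3 libraries of a group biological replicates. The spread of each gene was estimated over all 12 libraries, so standard errors and p-values of total mRNA also carry the spread of the polysome libraries. A gene not called was therefore not shown to be unchanged in total mRNA. With the 6 total libraries alone the counts were 1063 higher and 1545 lower.

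**Figure D2:**
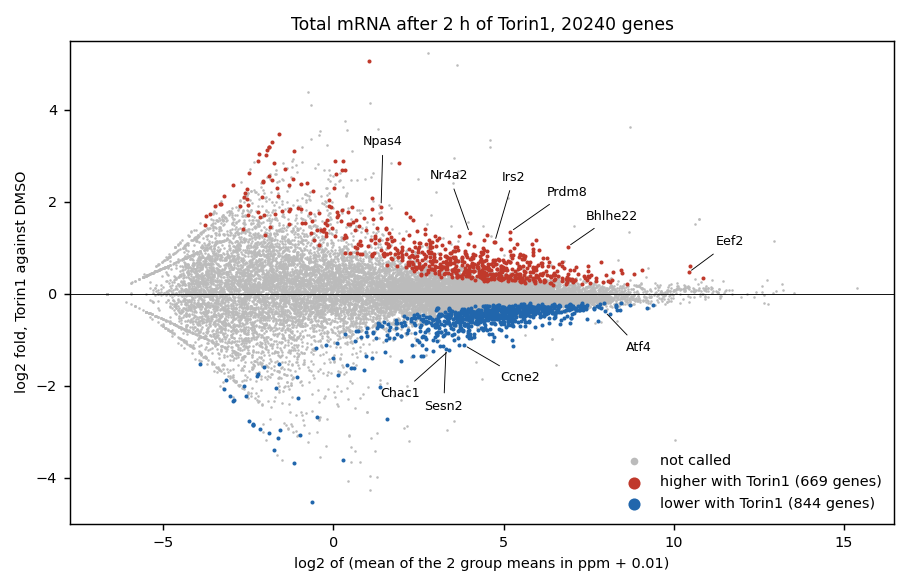
Log2 fold of Torin1 against DMSO in total mRNA (vertical) against the mean level in ppm on a log2 scale (horizontal) for the 20240 genes tested. Red and blue points are the 669 higher and 844 lower genes, grey points were not called, and called genes lie close to 0 where levels are high.

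Immediate early genes, which growth factor and activity signals switch on within minutes without new protein, rose in 17 of 33 cases and fell in 2, with a median log2 fold of 0.50. The rises numbered 14 to 16 with any 1 of the 6 libraries left out, and 15 rose and 0 fell without Torin1 replicate 2. Fos, an AP-1 subunit, stood at 12.2, 13.0 and 14.5 ppm in DMSO and at 30.2, 30.7 and 28.4 ppm with Torin1. Every Torin1 library was above every DMSO library, a log2 fold of 1.17 ± 0.10 (standard error, as in all folds below; adjusted p = 8.78e-05). Nr4a2, an orphan nuclear receptor, stood at 8.89, 9.61 and 8.94 ppm and then at 24.3, 21.0 and 23.4 ppm (1.32 ± 0.10). Npas4, an activity-dependent factor of neurons, was low but well apart, at 1.15, 1.21 and 0.903 ppm against 4.14, 4.39 and 4.00 ppm (1.89 ± 0.20).

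The zinc finger factor Egr2 went the same way, from 3.12, 3.78 and 3.73 ppm to 9.35, 9.85 and 9.14 ppm (1.41 ± 0.19). Its relative Egr1, which the same signals are known to induce, stood at 65.0, 64.9 and 67.0 ppm against 60.4, 58.4 and 59.0 ppm and was not called (adjusted p = 0.218). The AP-1 gene Jun, at 71.2, 76.5 and 74.8 ppm against 76.1, 74.2 and 76.8 ppm, was not called either (adjusted p = 0.888), while Junb went from 9.34, 8.29 and 9.74 ppm to 15.6, 14.8 and 15.2 ppm (0.74 ± 0.11). The immediate early genes thus did not move as a block. The other members that rose were Fosb, Nr4a1, Nr4a3, Egr3, Fosl2, Arc, Zfp36l1, Btg1, Btg2, Ier5, Id2 and Id4. Fosb, at 0.603, 0.376 and 0.0901 ppm against 2.05, 1.41 and 1.54 ppm, lost its call without either of 2 libraries (worst adjusted p over the 6 libraries left out in turn = 0.0696, Torin1 1 left out). The members that fell were the AP-1 subunit Jund (-0.54 ± 0.12), lost without each of 4 libraries (worst adjusted p = 0.0942, DMSO 2 left out), and the small Maf factor Mafk (-0.35 ± 0.09), lost whichever library was left out (worst adjusted p = 0.171, DMSO 2 left out).

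The windows around the start sites of Fos and Nr4a2 are shown because both genes rose strongly, and they were chosen after values and motifs had been seen. They come from RefSeq (GRCm38.p6), run 5′ to 3′ on the gene's strand over 300 bases each, and carry in capitals the letters TATAAA of the TATA box, read on either strand. Fos lies on chromosome 12, with its window at chr12:85473640-85473939 (plus strand), and Nr4a2 on chromosome 2, with its window at chr2:57123954-57124253 (minus strand).
Fos: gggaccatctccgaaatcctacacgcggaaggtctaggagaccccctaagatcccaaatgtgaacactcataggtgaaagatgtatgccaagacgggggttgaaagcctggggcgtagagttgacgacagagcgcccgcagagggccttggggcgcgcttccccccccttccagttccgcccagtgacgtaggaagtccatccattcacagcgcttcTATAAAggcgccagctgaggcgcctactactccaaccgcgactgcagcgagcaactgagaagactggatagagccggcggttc
Nr4a2: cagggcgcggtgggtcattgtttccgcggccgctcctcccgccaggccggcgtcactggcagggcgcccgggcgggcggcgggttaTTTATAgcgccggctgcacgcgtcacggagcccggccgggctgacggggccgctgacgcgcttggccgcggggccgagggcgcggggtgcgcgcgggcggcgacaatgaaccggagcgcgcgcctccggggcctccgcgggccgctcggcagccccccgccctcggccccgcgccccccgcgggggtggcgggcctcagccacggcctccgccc
The match in Fos begins 33 bases before the start site on the gene's strand, and that in Nr4a2 begins 164 bases before it on the opposite strand. Such a match was found in 14.8% of all windows of this length in the table and in 7.96% of those of tested genes with a single window.

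**Figure D3:**
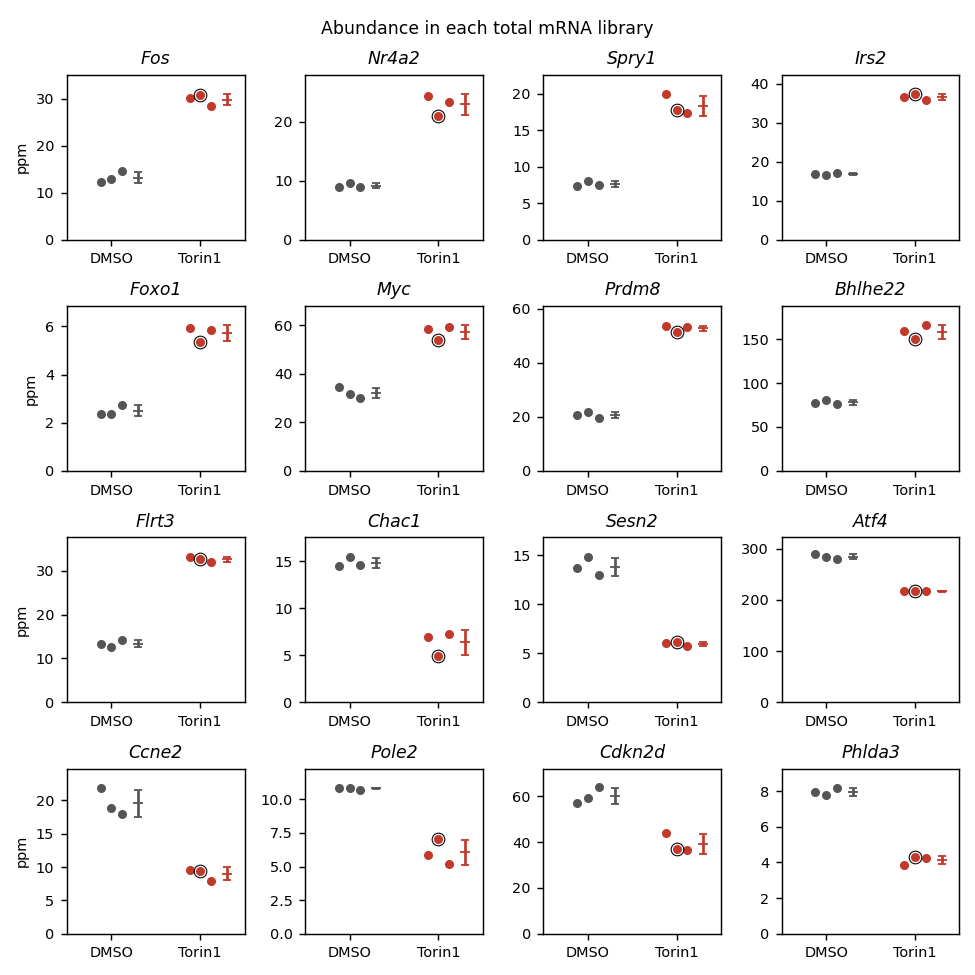
Abundance in ppm (vertical, from 0) of 16 genes in the DMSO (grey) and Torin1 (red) total mRNA libraries. Points are libraries, the ringed point is Torin1 replicate 2, and the bars beside them are mean ± SD (n = 3). In all 16 panels every Torin1 library lies on one side of every DMSO library, as in 33.3% of all genes tested.

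Of 20 tested genes that dampen ERK signalling, 4 rose and 3 fell (4 and 1 to 2 with any 1 library left out), with a median log2 fold of 0.04. Of the Sprouty genes, feedback inhibitors of receptor tyrosine kinase signalling, Spry1 and Spry2 were among the rises. Spry1 stood at 7.30, 8.09 and 7.50 ppm and then at 20.0, 17.8 and 17.3 ppm (1.26 ± 0.11), and Spry2 at 53.4, 54.4 and 52.3 ppm and then at 84.6, 85.9 and 83.8 ppm (0.67 ± 0.06). The MAP kinase phosphatases Dusp4 (0.61 ± 0.07) and Dusp6 (0.58 ± 0.06) were the other rises, and all 4 kept their call with any library left out. Dusp7, of the same phosphatase family, moved the other way, from 12.1, 10.0 and 10.3 ppm to 5.79, 5.18 and 6.45 ppm (-0.89 ± 0.14). Dusp14 (-0.45 ± 0.12) and Dusp8 (-0.36 ± 0.08) fell too, and these calls were lost without each of 5 libraries and without any of them (worst adjusted p = 0.136, DMSO 2 left out, and 0.0929, DMSO 1 left out). Dusp1, with a log2 fold of -0.00 ± 0.08, was not called.

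Among 26 receptor tyrosine kinase and adaptor genes 5 rose and 2 fell (4 and 1 without Torin1 replicate 2), with a median of 0.26. The insulin receptor substrates, which carry the signal from the insulin and IGF1 receptors to PI3 kinase, both rose. Irs2 stood at 16.7, 16.5 and 17.0 ppm in DMSO and at 36.6, 37.4 and 35.9 ppm with Torin1 (1.13 ± 0.13, adjusted p = 0.000711). Irs1 stood at 11.9, 12.7 and 11.3 ppm and then at 19.8, 21.1 and 19.6 ppm (0.75 ± 0.12). The receptor genes upstream of them did not pass: Insr had 0.27 ± 0.12 (adjusted p = 0.2) and Igf1r 0.26 ± 0.17 (adjusted p = 0.428). Every Torin1 library lay above every DMSO library for both, as for 3128 of the 20240 genes tested. The ephrin receptor gene Epha4 (0.77 ± 0.10), the FGF receptor gene Fgfr2 and the adaptor gene Gab1 made up the other rises. Sos1, the exchange factor that loads RAS, fell from 15.9, 16.2 and 16.3 ppm to 10.1, 9.93 and 10.2 ppm (-0.68 ± 0.12). Erbb2, a receptor kinase gene, had -0.46 ± 0.11, a call lost whichever library was left out (worst adjusted p = 0.112, DMSO 1 left out). Erbb3, a partner of Erbb2, stood at or under 0.292 ppm in all 6 libraries and was not called.

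Of 29 FOXO factors and their classic targets 13 rose and 1 fell, with a median of 0.29. The rises numbered 9 to 10 with any 1 library left out and 7 with scaling to the column total. Foxo1 itself stood at 2.36, 2.38 and 2.76 ppm and then at 5.93, 5.34 and 5.86 ppm (1.18 ± 0.17). Foxo3 had 0.52 ± 0.11, a call lost without each of 4 libraries (worst adjusted p = 0.0708, DMSO 2 left out). Klf4, a zinc finger factor also induced by many other signals, went from 1.70, 2.39 and 1.81 ppm to 7.11, 8.72 and 4.75 ppm (1.75 ± 0.24). Bcl6, a transcriptional repressor, went from 3.76, 3.60 and 3.89 ppm to 7.13, 7.56 and 8.31 ppm (1.02 ± 0.16). Bcl2l11, which encodes the cell death protein BIM, went from 10.7, 9.03 and 10.4 ppm to 17.4, 17.3 and 17.0 ppm (0.78 ± 0.11). The other rises were Klf6, Klf15, Fbxo32, Cited2, Pik3ip1, Trib2, Ccng2 and Cdkn1b. The log2 fold was above 0 for 22 of the 29. Txnip (-0.30), Bbc3 (-0.26), Sod2 (-0.22), Sesn3 (-0.20) and Klf2 (-0.14) were below 0 and not called. The antiproliferative gene Tob1 fell (-0.53 ± 0.13), a call lost without each of 5 libraries (worst adjusted p = 0.118, Torin1 3 left out).

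Of 26 genes of the mTOR complexes and their effectors 2 rose (7.69%) and 0 fell, beside 3.31% and 4.17% of all genes tested. Of the 9453 genes at 8 ppm or more 420 rose and 708 fell. Mtor, the target of the drug, stood at 23.7, 23.3 and 24.4 ppm against 23.6, 22.1 and 21.3 ppm and was not called (adjusted p = 0.688), nor were the scaffold genes Rptor (adjusted p = 0.923) and Rictor (adjusted p = 0.69) or the S6 kinase gene Rps6kb1 (adjusted p = 0.762). Deptor, an inhibitory subunit of both complexes, rose from 11.8, 9.69 and 10.4 ppm to 19.8, 20.9 and 17.3 ppm (0.86 ± 0.14). Pdcd4, an inhibitor of the helicase eIF4A, rose from 35.6, 36.2 and 37.3 ppm to 54.6, 52.7 and 53 ppm (0.56 ± 0.07). The translational repressor gene Eif4ebp1 was lower in every Torin1 library, at 20.6, 15.2 and 20.1 ppm against 24.6, 22.7 and 25 ppm, but did not pass (adjusted p = 0.158), and Eif4ebp2 did not pass either (adjusted p = 0.584).

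Of 27 genes that sense amino acids for mTORC1 2 fell and 0 rose. Sesn2, whose product binds leucine and holds mTORC1 back, stood at 13.7, 14.8 and 13.0 ppm in DMSO and at 6.03, 6.18 and 5.75 ppm with Torin1 (-1.20 ± 0.13, adjusted p = 0.00047). Its relative Sesn1 had 0.15 ± 0.11 and was not called (adjusted p = 0.467). Rraga, a Rag GTPase that brings mTORC1 to the lysosome, had -0.37 ± 0.06. In the MYC network of 13 genes 2 rose. Myc went from 34.5, 31.7 and 30.2 ppm to 58.7, 54.1 and 59.5 ppm (0.84 ± 0.08) and Mycn from 50.0, 52.8 and 50.8 ppm to 75.7, 79.9 and 80.2 ppm (0.62 ± 0.07). Mlxip, a glucose-responsive partner in that network, had -0.46 ± 0.10, a call lost without each of 5 libraries (worst adjusted p = 0.0808, Torin1 3 left out).

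Several genes of the G1/S transition fell, and those of mitosis showed few calls. Of 23 G1/S cyclin, E2F and Rb family genes 10 fell and 0 rose, with a median of -0.28. The falls numbered 5 to 8 with any 1 library left out, 7 without Torin1 replicate 2 and 5 with scaling to the column total. Both E cyclins, which activate CDK2 for entry into S phase, were among them. Ccne2 stood at 21.8, 18.9 and 18 ppm and then at 9.63, 9.44 and 7.89 ppm (-1.12 ± 0.14), and Ccne1 at 16.7, 15.4 and 14.1 ppm and then at 10.3, 5.93 and 7.31 ppm (-1.0 ± 0.18). The others were Ccnd3, Cdk2, Cdc25a, Skp2, Tfdp1, E2f4, E2f6 and E2f2. The last of these had -0.64 ± 0.15, a call lost whichever library was left out (worst adjusted p = 0.103, DMSO 3 left out). Ccnd1, a D cyclin gene, stood at 95.0, 92.6 and 96.1 ppm against 91.1, 89.1 and 93.8 ppm and was not called (adjusted p = 0.712).

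Of 45 DNA replication genes 11 fell and 1 rose, with a median of -0.20 (5 to 7 fell with any 1 library left out, and 6 with scaling to the column total). Pole2, a subunit of the leading strand polymerase, went from 10.8, 10.8 and 10.7 ppm to 5.87, 7.08 and 5.19 ppm (-0.84 ± 0.14). Cdc6, which loads the replicative helicase, went from 10.5, 12.6 and 11.3 ppm to 6.41, 7.12 and 5.71 ppm (-0.83 ± 0.15), and the flap endonuclease gene Fen1 had -0.47 ± 0.07. The helicase subunit Mcm7 rose by 0.22 ± 0.06, a call lost whichever library was left out (worst adjusted p = 0.132, DMSO 3 left out). Among 7 CDK inhibitors the directions differed. Cdkn2d, which binds CDK4 and CDK6, fell from 57.2, 59.2 and 64.1 ppm to 44.2, 36.9 and 36.7 ppm (-0.62 ± 0.09). Cdkn1b, which encodes p27, had 0.33 ± 0.07, a call lost without each of 3 libraries (worst adjusted p = 0.0597, DMSO 3 left out). Cdkn2b had 0.84 ± 0.19, lost without each of 4 (worst adjusted p = 0.0868, Torin1 3 left out).

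Of 42 G2/M genes 1 rose and 1 fell, 2.38% each, below the share of all genes called in either direction. The kinetochore gene Ndc80 (0.48 ± 0.11) lost its call whichever library was left out, and the mitotic transcription factor gene Foxm1 (-0.33 ± 0.07) without each of 5 (worst adjusted p = 0.0807, DMSO 2 left out, and 0.0851, DMSO 1 left out). The clustered histone genes, made in S phase, had 3 rises and 0 falls among 60 tested and a median of 0.64 with Torin1 replicate 2 and -0.04 without it. Of the rises, Hist1h1c, a linker histone gene, kept its call with any library left out (0.70 ± 0.11).

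ATF4 is the transcription factor of the amino acid response, and its translation depends on mTORC1. Atf4 mRNA stood at 289, 284 and 279 ppm in DMSO and at 218, 217 and 216 ppm with Torin1 (-0.39 ± 0.06, adjusted p = 0.00282), with narrow groups far apart. Of 20 ATF4 stress factors and effectors 6 fell and 0 rose, with a median of -0.26 (3 to 4 fell with any 1 library left out, and 3 with scaling to the column total). Chac1, which degrades glutathione, was the steepest fall of those that met the level and stability rule, from 14.4, 15.4 and 14.6 ppm to 6.96, 4.89 and 7.25 ppm (-1.23 ± 0.14, adjusted p = 0.000636). Trib3, a pseudokinase gene, stood at 1.89, 2.35 and 2.76 ppm against 0.630, 0.677 and 0.836 ppm (-1.62 ± 0.41), and Ddit4, an inhibitor of mTORC1 signalling, had -0.31 ± 0.08. Both calls were lost whichever library was left out (worst adjusted p = 0.113 and 0.149, each DMSO 3 left out). Ddit3, which encodes the stress factor CHOP, had 0.19 ± 0.11 and was not called.

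The Chac1 window is shown because it holds a match to the letters of the ATF4 composite element, TGATGNAA, and it too was chosen after values and motifs had been seen. Chac1 lies on chromosome 2, with its window at chr2:119350992-119351291 (plus strand, RefSeq, GRCm38.p6), and the capitals mark that match, here on the opposite strand, and the CCAAT boxes on either strand.
Chac1: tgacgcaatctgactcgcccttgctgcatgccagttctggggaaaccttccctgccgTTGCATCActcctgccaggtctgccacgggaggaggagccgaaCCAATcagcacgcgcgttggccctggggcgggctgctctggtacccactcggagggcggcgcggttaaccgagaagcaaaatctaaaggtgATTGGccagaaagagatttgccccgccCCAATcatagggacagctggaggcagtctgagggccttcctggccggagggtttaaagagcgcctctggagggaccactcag
The ATF4 letters were found in 4.18% of all windows in the table, in 2.34% of those of tested genes and in 1.30% of those of genes that fell, so this match is not typical of the falling genes.

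Synthesis genes downstream of ATF4 were mostly not called. Of 19 serine, one-carbon and asparagine genes 1 fell: Mthfd2, the mitochondrial folate enzyme, went from 44.2, 47.2 and 45.4 ppm to 29.1, 25.9 and 29.8 ppm (-0.69 ± 0.07). The asparagine synthetase gene Asns had -0.02 ± 0.08 and the serine pathway gene Psat1 -0.10 ± 0.06, and neither was called. Of 23 amino acid transporter genes 1 rose, Slc38a7 (0.46 ± 0.11, lost without each of 5 libraries, worst adjusted p = 0.118, DMSO 2 left out). Of 22 aminoacyl-tRNA synthetase genes 2 fell and 1 rose, and the scaffold subunit Aimp2 (-0.36 ± 0.07) kept its call with any library left out. Yars (-0.23 ± 0.06) and Qars (0.38 ± 0.10), for tyrosine and glutamine, each lost theirs without each of 5 (worst adjusted p = 0.178, Torin1 3 left out, and 0.171, DMSO 3 left out).

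Of 20 purine and pyrimidine synthesis genes 2 fell (10%), beside 4.17% of all genes tested and 708 of the 9453 at 8 ppm or more. The falls were the pyrimidine enzymes Umps (-0.33 ± 0.07) and Ctps (-0.32 ± 0.07). These calls were lost without each of 4 and of 3 libraries (worst adjusted p = 0.0616, DMSO 1 left out, and 0.0635, DMSO 2 left out). Of 36 cholesterol synthesis and SREBP target genes 6 fell and 0 rose, with a median of -0.07 (2 to 3 fell with any 1 library left out). The sterol oxidase gene Msmo1 (-0.41 ± 0.11), of cholesterol synthesis, lost its call whichever library was left out (worst adjusted p = 0.131, Torin1 3 left out). Among 38 glycolysis and HIF1 target genes 2 rose and 3 fell (1 and 1 to 2 with any 1 library left out). Ndrg1, a hypoxia-induced gene, rose from 103, 104 and 98.9 ppm to 149, 143 and 147 ppm (0.52 ± 0.08), and Egln1, an oxygen-sensing hydroxylase that marks HIF1 for destruction, fell from 41.2, 40.2 and 41.5 ppm to 31.7, 31.1 and 30.3 ppm (-0.40 ± 0.06). Of 20 NRF2 and iron genes 2 fell (10%) and 0 rose, beside falls in 4.17% of all genes tested and in 708 of the 9453 at 8 ppm or more. The falls were the antioxidant gene Srxn1 (-0.79 ± 0.21), lost without each of 5 libraries, and the iron transporter gene Slc11a2 (-0.52 ± 0.13), lost without each of 4 (worst adjusted p = 0.152, Torin1 2 left out, and 0.124, DMSO 3 left out).

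Ribosome production showed falls in its assembly factors and none in the ribosomal proteins. Of 66 ribosome biogenesis genes 9 fell and 0 rose, with a median of -0.08 (7 to 8 fell with any 1 library left out). Bysl, a factor of small subunit assembly, went from 22.6, 23.6 and 21.9 ppm to 14.8, 13.8 and 14.8 ppm (-0.65 ± 0.10). Ltv1, which acts late in the same pathway, had -0.59 ± 0.12 and Utp18, of the early processome, -0.54 ± 0.08, and both kept their calls with any library left out. Of 36 RNA polymerase I and III genes 2 fell (5.56%, near the 4.17% of all genes tested). The activator of ribosomal RNA transcription Ubtf went from 105, 108 and 105 ppm to 89.3, 79.6 and 79.8 ppm (-0.36 ± 0.07). The polymerase III subunit Polr3e had -0.43 ± 0.07. Of 81 cytosolic ribosomal protein genes limma called 0 (2 at an unadjusted p under 0.05), and the median was 0.09 (0.05 with scaling to the column total). The log2 fold was above 0 for 77 of the 81. Their sum was 115749 to 118431 ppm in DMSO and 121172 to 127530 ppm with Torin1, so a small rise shared by most of them is not excluded by the lack of calls. Rps6, the S6 kinase substrate, stood at 1338, 1332 and 1326 ppm against 1510, 1448 and 1476 ppm, apart but not called (adjusted p = 0.55).

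Of 49 translation factor genes 3 rose and 2 fell. The elongation factor gene Eef2 stood at 1162, 1187 and 1146 ppm and then at 1670, 1533 and 1613 ppm (0.46 ± 0.08), and the initiation factor gene Eif4b at 147, 142 and 143 ppm and then at 190, 183 and 187 ppm (0.37 ± 0.05). The poly(A)-binding protein gene Pabpc1 had 0.43 ± 0.09, a call lost without each of 3 libraries (worst adjusted p = 0.0584, DMSO 2 left out). These 3 mRNAs are known members of the class with a 5′ terminal oligopyrimidine motif, whose translation mTORC1 controls. With scaling to the column total 0 of the 5 calls held. Larp1, which binds that motif, had -0.36 ± 0.10, lost whichever library was left out, and the exon junction helicase gene Eif4a3 -0.27 ± 0.06, lost without each of 5 (worst adjusted p = 0.125 and 0.086, each DMSO 3 left out). The 78 proteins of the mitochondrial ribosome had 9 falls (11.5%) and 0 rises, with a median of -0.09. Of all genes tested 4.17% fell, and of the 9453 at 8 ppm or more 708 fell. The falls in this list numbered 3 to 6 with any 1 library left out. Mrps7 (-0.54 ± 0.08) and Mrpl36 (-0.50 ± 0.08) kept their calls with any library left out. Of 15 genes encoded in the mitochondrion limma called 0 (1 at an unadjusted p under 0.05).

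Of 50 lysosomal hydrolase and membrane protein genes 5 rose and 0 fell, with a median of 0.14 (2 to 4 rose with any 1 library left out, and 1 with scaling to the column total). Hexa, a subunit of hexosaminidase, went from 10.7, 13.1 and 14.7 ppm to 19.8, 20.0 and 18.6 ppm (0.61 ± 0.11). Naglu, another glycosidase gene, had 0.85 ± 0.18, lost without each of 4 libraries, and the progranulin gene Grn 0.51 ± 0.13, lost whichever was left out (worst adjusted p = 0.063, DMSO 1 left out, and 0.109, DMSO 3 left out). Of 18 vacuolar ATPase genes limma called 0 (5 at an unadjusted p under 0.05). The transcription factor genes of this programme were not called: Tfe3 had -0.32 ± 0.13 (adjusted p = 0.168) and Tfeb, at 1.07, 1.20 and 1.28 ppm against 0.741, 0.523 and 0.236 ppm, had an adjusted p = 0.0546. Without Torin1 replicate 2 Tfe3 passed as lower (-0.49, adjusted p = 0.0225). Lamp1 (adjusted p = 0.274) and the autophagy receptor gene Sqstm1 (adjusted p = 0.15) did not pass.

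Of 40 autophagy genes 4 rose and 2 fell, with a median of -0.0057. With any 1 library left out 1 to 3 rose and 0 fell (1 and 0 without Torin1 replicate 2), and with scaling to the column total 1 rose and 2 fell. Wdr45, which binds lipids of the forming autophagosome, went from 17.4, 16.6 and 16.6 ppm to 30.6, 26.4 and 26.5 ppm (0.72 ± 0.09). Atg4d (-0.52 ± 0.12) and Atg5 (-0.39 ± 0.10), of the conjugation machinery, lost their calls whichever library was left out (worst adjusted p = 0.0998 and 0.131, each DMSO 1 left out). Among 31 unfolded protein and heat shock genes 5 fell and 2 rose (2 to 3 and 0 to 1 with any 1 library left out, 3 and 0 with scaling to the column total). Dnajb1, a cochaperone induced by heat shock factor, fell from 34.1, 36.6 and 35.6 ppm to 26.4, 23.6 and 23.3 ppm (-0.54 ± 0.09), and the inducible chaperone gene Hspa1a, at most 1.05 ppm throughout, had -2.26 ± 0.38. The abundant chaperone gene Hsp90ab1 had 0.35 ± 0.08, lost without each of 5 libraries (worst adjusted p = 0.0787, DMSO 1 left out). Of 39 proteasome and chaperonin genes 2 fell, Psmd12 and Psmd7 (5.13%, near the 4.17% of all genes tested). Both calls were lost with at least 4 of the 6 libraries left out in turn (worst adjusted p = 0.145, Torin1 3 left out, and 0.0827, DMSO 1 left out).

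**Figure D4:**
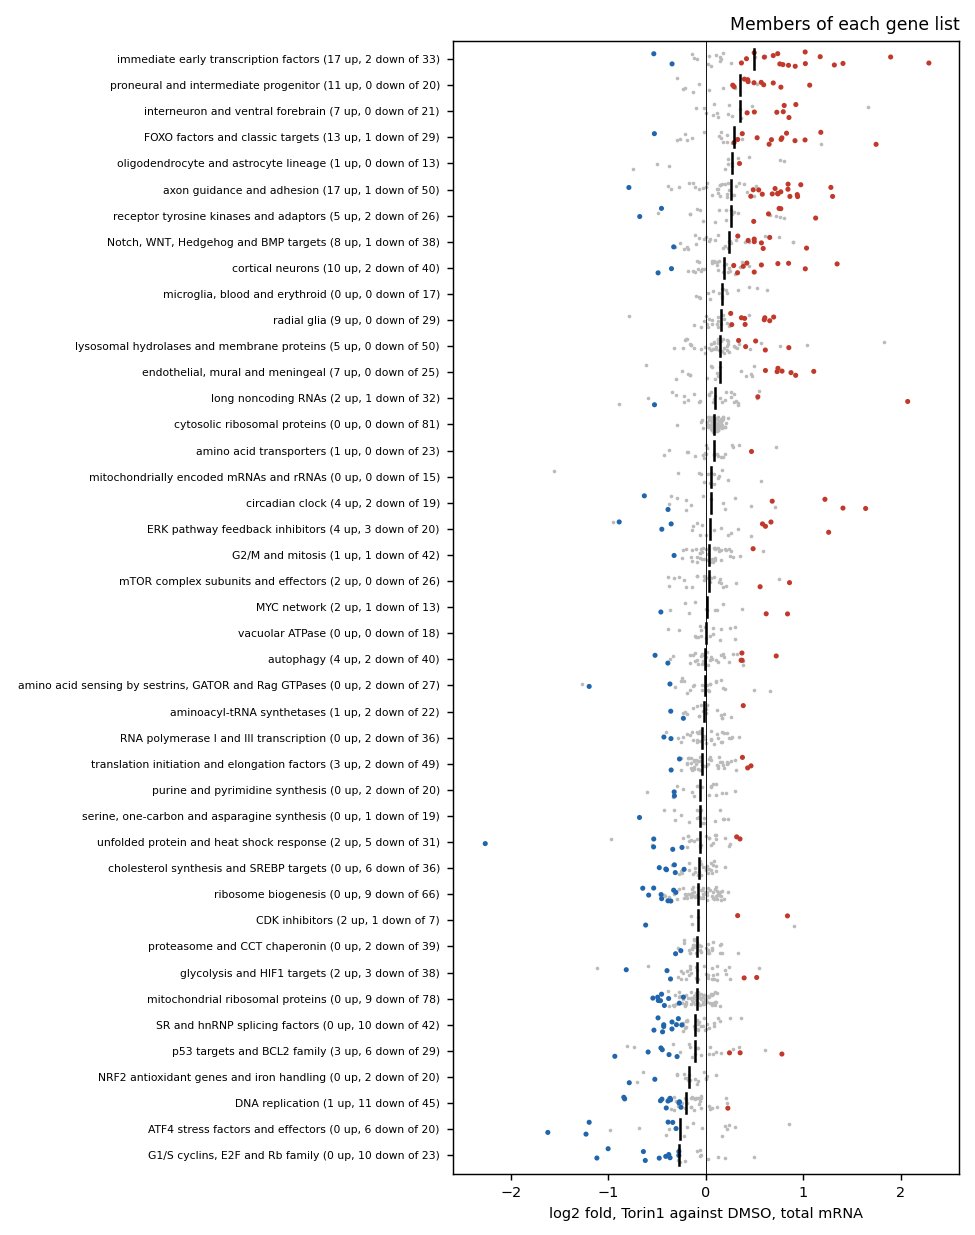
Log2 fold of Torin1 against DMSO in total mRNA (horizontal) of the tested members of 43 gene lists (rows, ordered by the list's median, the black bar). Red and blue points were called higher and lower, grey points were not called. The structural RNA and clustered histone lists are not drawn, and of those drawn immediate early genes have the highest median and G1/S genes the lowest.

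The label of the cells was set beside markers. Of 29 radial glia genes 28 were above 0 in all 6 libraries, and so were all 40 cortical neuron genes. The same held for 20 of 21 interneuron and ventral forebrain genes and 12 of 13 oligodendrocyte and astrocyte genes. It also held for 24 of 25 endothelial, mural and meningeal genes and 16 of 17 microglia, blood and erythroid genes. A value above 0 thus did not tell cell types apart, and the make-up of the cultures was not settled by it. Calls in the neural lists were almost all rises. Of 20 proneural and intermediate progenitor genes 11 rose and 0 fell, with a median of 0.35 (5 to 6 with any 1 library left out, and 5 with scaling to the column total). Neurod1, a neuronal differentiation factor, went from 36.1, 35.6 and 35.4 ppm to 60.5, 64.2 and 57.9 ppm (0.77 ± 0.07). The antiproliferative gene Btg2, also in the immediate early list, went from 41.6, 41.9 and 42.6 ppm to 65.6, 67.1 and 71.0 ppm (0.69 ± 0.06). Neurog2, the main proneural factor of the cortex, had 0.57 ± 0.10 and Eomes, of intermediate progenitors, 0.43 ± 0.07, and both kept their calls with any library left out. Neurod4, near 1 ppm in DMSO, had 1.06 ± 0.23, lost without each of 3 libraries (worst adjusted p = 0.0641, DMSO 3 left out).

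Of 29 radial glia genes 9 rose and 0 fell, with a median of 0.15 (5 to 6 with any 1 library left out, and 3 with scaling to the column total). Hopx, a homeodomain gene, went from 66.1, 56.2 and 64.4 ppm to 99.3, 101 and 101 ppm (0.69 ± 0.09). The Notch target Hes1 stood at 13.2 ppm on average and then at 20.7, 20.0 and 21.6 ppm (0.65 ± 0.10), with groups apart, and Sox9 had 0.60 ± 0.12. Sox2 had 0.25 ± 0.06, lost whichever library was left out (worst adjusted p = 0.083, DMSO 3 left out), and Pax6 (adjusted p = 0.458) and Hes5 (adjusted p = 0.0715) did not pass. Of 40 cortical neuron genes 10 rose and 2 fell, with a median of 0.18 (6 to 8 rose with any 1 library left out, and 6 with scaling to the column total). Prdm8, a transcriptional repressor that partners Bhlhe22, stood at 20.6, 21.9 and 19.8 ppm and then at 53.6, 51.6 and 53.2 ppm (1.35 ± 0.11, adjusted p = 9.77e-05). Bhlhe22 itself stood at 77.5, 80.5 and 75.8 ppm and then at 159, 150 and 166 ppm (1.02 ± 0.06, adjusted p = 6.38e-06). Mef2c, an activity-regulated factor, had 0.85 ± 0.08. The zinc finger genes Scrt1 (-0.49 ± 0.09) and Scrt2 (-0.35 ± 0.09) fell, the latter a call lost whichever library was left out (worst adjusted p = 0.107, DMSO 1 left out). The neuronal tubulin gene Tubb3, at 1005, 1041 and 964 ppm against 989, 902 and 947 ppm, was not called (adjusted p = 0.627).

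Interneuron and ventral forebrain factors rose in 7 of 21 cases with 0 falls, with a median of 0.35 (3 to 4 with any 1 library left out, and 3 with scaling to the column total). Sp8, a zinc finger factor, went from 17.0, 16.7 and 14.0 ppm to 28.5, 30.4 and 31.5 ppm (0.92 ± 0.11), and its relative Sp9 had 0.80 ± 0.14. Prox1 had 0.85 ± 0.22, lost whichever library was left out (worst adjusted p = 0.133, Torin1 2 left out). In the oligodendrocyte and astrocyte list of 13, 1 gene rose, Olig2 (0.33 ± 0.07), lost without each of 5 libraries (worst adjusted p = 0.0713, Torin1 3 left out).

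Among the markers of other cell types below, most calls were of collagen genes. The 25 endothelial, mural and meningeal genes summed to 79.0 to 93.9 ppm in DMSO and to 125 to 145 ppm with Torin1, with 24 of them above 0 in all 6 libraries and none at 0 in all. Of the 25, 7 rose and 0 fell, with a median of 0.14 (3 to 5 rose with any 1 library left out). The rises were the collagen genes Col1a1, Col1a2, Col3a1, Col4a1 and Col4a2, Bgn and the endothelial gene Cldn5. Col1a1, a fibrous collagen gene, went from 3.95, 3.57 and 3.60 ppm to 7.64, 7.71 and 8.81 ppm (1.11 ± 0.14), the basement membrane collagen gene Col4a1 had 0.87 ± 0.16, and the endothelial gene Pecam1 had 0.41 ± 0.18 and was not called. Col3a1 had 0.92 ± 0.22, lost without each of 4 libraries (worst adjusted p = 0.101, Torin1 3 left out). Of 17 microglia, blood and erythroid genes limma called 0 (1 at an unadjusted p under 0.05), with a sum of 1538 to 1649 ppm in DMSO and 1672 to 1937 ppm with Torin1, much of it the haemoglobin gene Hba-a1. The part of such cells in the other rises was not tested.

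Genes of axon guidance and cell adhesion, many of them on the surface of growing neurons, rose in 17 of 50 cases and fell in 1, with a median of 0.26 (13 to 15 rose with any 1 library left out, and 15 with scaling to the column total). Flrt3, a transmembrane adhesion gene, stood at 13.4, 12.7 and 14.1 ppm and then at 33.0, 32.8 and 32.0 ppm (1.28 ± 0.12). Its relative Flrt2 went from 39.4, 39.1 and 39.3 ppm to 76.2, 76.5 and 78.7 ppm (0.97 ± 0.10). Pcdh17, a protocadherin gene, went from 3.80, 3.53 and 3.71 ppm to 8.92, 9.16 and 9.34 ppm (1.30 ± 0.16). The other rises were the protocadherin genes Pcdh8, Pcdh9 and Pcdh19, the cadherin gene Cdh11, the semaphorin genes Sema3a, Sema3c, Sema6a and Sema6d, the neuropilin genes Nrp1 and Nrp2, the ephrin receptor genes Epha3, Epha4 and Epha7, and Efnb2. The ephrin-A ligand Efna2 went the other way, from 25.1, 25.5 and 21.2 ppm to 13.7, 13.2 and 14.5 ppm (-0.79 ± 0.10). Efna3, named among the steepest falls, did likewise, from 32.8, 36.9 and 33.6 ppm to 18, 18.5 and 17.3 ppm (-0.94 ± 0.08).

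Of 38 Notch, WNT, Hedgehog and BMP genes 8 rose and 1 fell, with a median of 0.24 (3 to 5 rose with any 1 library left out, and 3 with scaling to the column total). The Notch ligand Jag1 went from 4.98, 5.61 and 5.38 ppm to 11.0, 11.0 and 10.8 ppm (1.03 ± 0.16). Smo, the Hedgehog transducer, had -0.33 ± 0.09, lost whichever library was left out (worst adjusted p = 0.122, Torin1 1 left out). Among 19 clock genes 4 rose and 2 fell (3 to 4 and 1 to 2 with any 1 library left out). The nuclear receptor genes Rorb, from 5.11, 5.12 and 5.00 ppm to 12.6, 10.9 and 12.2 ppm (1.22 ± 0.13), and Rora (1.64 ± 0.27) rose, while the repressor gene Cry1 fell from 18, 17.4 and 16.5 ppm to 12.3, 10.3 and 10.9 ppm (-0.63 ± 0.10). The period gene Per1, itself an immediate early gene in other cells, had 0.19 ± 0.23 and was not called.

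Of 29 p53 targets and BCL2 family genes 6 fell and 3 rose (3 to 4 and 1 with any 1 library left out, 3 and 1 with scaling to the column total). Phlda3, an AKT inhibitor induced by p53, went from 7.93, 7.76 and 8.19 ppm to 3.88, 4.28 and 4.26 ppm (-0.93 ± 0.11), and the p53-induced nuclease gene Aen from 54.0, 53.6 and 57.3 ppm to 36.3, 34.4 and 38.6 ppm (-0.59 ± 0.09). The other falls were Zmat3, Bad, Mdm2 and Bcl2l1. Cdkn1a, the best known p53 target, had -0.15 ± 0.12 and was not called. Beside Bcl2l11, already given, Bcl2 (0.35 ± 0.10) and Plk2 (0.24 ± 0.06) rose, with calls lost whichever library was left out (worst adjusted p = 0.161, DMSO 1 left out, and 0.11, Torin1 3 left out).

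Of 42 SR and hnRNP splicing factor genes 10 fell and 0 rose, with a median of -0.11 (3 to 6 fell with any 1 library left out, and 5 with scaling to the column total). Srrm2, a large nuclear speckle protein gene, went from 77.2, 79.5 and 85.3 ppm to 53.9, 59.9 and 58.3 ppm (-0.49 ± 0.09), and the RNA helicase gene Ddx17 from 147, 146 and 154 ppm to 103, 118 and 107 ppm (-0.45 ± 0.07). Srsf7, at 129, 129 and 130 ppm against 92.1, 86.7 and 89.8 ppm (-0.53 ± 0.11), lost its call without each of 5 libraries (worst adjusted p = 0.058, Torin1 2 left out). The others were Srsf1, Srsf2, Srsf3, Srsf5, Srsf6, Srsf9 and Luc7l3. Of 32 long noncoding RNAs 2 rose and 1 fell (0 to 2 and 0 to 1 with any 1 library left out, and 0 of either without Torin1 replicate 2). The nuclear RNA Neat1, at 0.859, 1.33 and 0.397 ppm against 2.87, 4.51 and 3.14 ppm, had 2.07 ± 0.42, a call lost without Torin1 replicate 2 (adjusted p = 0.0564). Malat1, another nuclear RNA, was lower in every Torin1 library, at 32.8, 36.0 and 35.5 ppm against 57.9, 68.1 and 68.4 ppm, and was not called (adjusted p = 0.126).

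Among genes of at least 8 ppm whose groups did not overlap and whose calls held without Torin1 replicate 2, the 15 largest rises had log2 folds from 1.05 to 1.35 and the 15 largest falls from -1.23 to -0.94. Beside those already given, the rises included Zfp608, a zinc finger gene, from 22.4, 21.5 and 22.6 ppm to 50.3, 50.9 and 49.6 ppm (1.18 ± 0.09), and Zfp703, a transcriptional corepressor, from 32.4, 44.1 and 37.1 ppm to 90.8, 80.8 and 83.3 ppm (1.17 ± 0.15). Rasgef1b, an exchange factor of the RAP family, went from 36.8, 36.3 and 37.3 ppm to 76.1, 76.1 and 80.1 ppm (1.07 ± 0.08). Fst, which encodes the activin antagonist follistatin, went from 27.5, 27.2 and 25.9 ppm to 57.9, 55.6 and 56.0 ppm (1.07 ± 0.08). The somatostatin receptor gene Sstr1 (1.12 ± 0.12), Cxxc4, an inhibitor of WNT signalling (1.11 ± 0.12), Tcim (1.08 ± 0.15) and the homeobox gene Barhl2 (1.05 ± 0.16) completed the rises.

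On the falling side Gdf11, a TGF-beta family ligand that restrains neurogenesis in other tissues, stood at 13.0, 13.3 and 12.6 ppm and then at 5.90, 5.89 and 5.72 ppm (-1.14 ± 0.10). Follistatin, the product of the rising Fst, binds ligands of that family. Pgp, a glycerol phosphate phosphatase gene, went from 56.0, 54.4 and 50.0 ppm to 31.4, 18.9 and 24.0 ppm (-1.14 ± 0.15). Nck1, an adaptor of receptor tyrosine kinases, went from 20.6, 21.7 and 21.2 ppm to 9.95, 10.7 and 11.8 ppm (-0.97 ± 0.16). Akirin1, a nuclear cofactor gene, went from 52.7, 50.7 and 48.7 ppm to 29.8, 21.1 and 25.6 ppm (-1.0 ± 0.11). The BCL6 corepressor relative Bcorl1 (-1.13 ± 0.23), the sulfotransferase gene Gal3st3 (-1.12 ± 0.12), Rassf7 (-1.03 ± 0.13), Dcun1d4 (-1.02 ± 0.18), Klf16 (-0.97 ± 0.12) and Ndufaf4 (-0.96 ± 0.19), an assembly factor of respiratory complex I, fell as well. Of the 30, Ndufaf4 alone lost its call with a library left out (adjusted p = 0.0538, Torin1 3 left out). The reference genes Actb (adjusted p = 0.77) and Gapdh (adjusted p = 0.649) were not called.

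The genes that rose and fell differed in length. Spans from the first to the last base of each gene were taken from RefSeq (GRCm38.p6) for 14914 protein-coding genes, as a description chosen after the calls were known. The genes were put in 5 classes of equal number by span. In the longest class, from 75.6 to 2390 kb, 5.10% of genes were higher and 1.88% lower, with a median log2 fold of 0.084 (0.074 without Torin1 replicate 2). In the other 4 classes 2.65% to 4.83% were higher and 5.10% to 6.84% lower, with medians from -0.061 to -0.045. Of the falling genes 3.51% spanned over 100 kb, against 20.9% of the rising genes and 14.9% of all. Short genes were not scarce among the rises: 13.7% of them spanned under 5 kb, beside 14.9% of the falls and 11.9% of all.

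**Figure D5:**
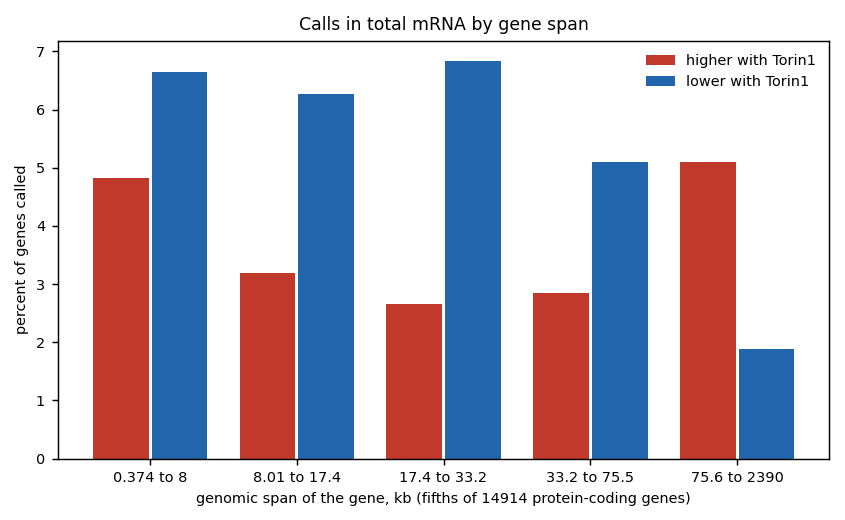
Percent of protein-coding genes called higher (red) and lower (blue) with Torin1 (vertical) in 5 equal classes of genomic span in kb (horizontal). In the longest class rises outnumber falls, 5.10% against 1.88%, and in each of the others falls outnumber rises.

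The 300-base windows around the start sites were searched for 10 motifs on both strands, for the 10446 tested genes with 1 window in the table, of which 375 rose and 539 fell. The TATA box letters TATAAA, which can lie within a CArG box, were in 11.2% of windows of rising genes, 6.31% of falling and 7.96% of all, with 12.6% in genes that rose without Torin1 replicate 2 and 14.5% in those that rose at least 1.5-fold. The ETS letters CCGGAAGT were in 3.47%, 9.65% and 7.23%. They were in 6.96% of windows of genes that fell without Torin1 replicate 2 and in 4.29% of those that fell at least 1.5-fold. The higher share in falling genes thus did not hold. The lower share in rising genes did, at 1.93% without Torin1 replicate 2 and 1.82% at 1.5-fold or more, each on 4 windows. The E2F letters TTTCCCGC or TTTGGCGC were in 2.67%, 5.38% and 2.86%, with 7.33% and 5.52% in those same 2 sets of falling genes. The CCAAT box was in 40.0%, 45.5% and 38.5%, with 48.0% and 44.8% in the 2 sets. The cAMP response element TGACGTCA (3.73%, 3.71% and 3.09%), the FOXO letters TGTTTAC (3.73%, 2.78% and 2.50%), the AP-1 letters TGANTCA (4.80%, 3.15% and 4.96%), the E-box CACGTG (11.7%, 10.0% and 9.65%) and the CArG box by name (1.60%, 2.04% and 1.38%) differed by fewer percentage points, though not always less as ratios. In the 2 sets of falling genes AP-1 letters were in 2.20% and 4.91%, and the CArG box in 2.20% and 3.68%, each of the latter on 6 windows. FOXO letters were in 3.86% of genes that rose without Torin1 replicate 2 and in 2.73% of those that rose at least 1.5-fold. Median GC content was 62.0% in rising, 64.7% in falling and 60.3% in all windows, and its part in these shares was not tested. A match is a run of letters and not a site.

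The polysome libraries of the same treatments, made from the rest of each lysate per the labels, show whether these changes differed among mRNAs bearing more than 3 ribosomes. The difference between the polysome and the total fold passed for 146 genes, 0.721% of those tested, and for 10 of the 669 higher and 2 of the 844 lower genes. For the genes that led the groups above the folds stood side by side: Fos had 1.17 in total and 1.51 in polysome mRNA, Nr4a2 1.32 and 1.32, Irs2 1.13 and 0.89, Bhlhe22 1.02 and 1.00, Chac1 -1.23 and -0.83, Sesn2 -1.20 and -1.36, and Ccne2 -1.12 and -0.72. None of these 7 differences passed (lowest adjusted p = 0.774, for Fos), which does not show the folds to be equal. The fit treated the total and polysome libraries of a lysate as independent. All p-values of the difference therefore leave that pairing out. Pabpc1, by contrast, had 0.43 in total and -0.59 in polysome mRNA, a difference that passed (limma, adjusted p = 0.00172). Eef2, with 0.46 and -0.04, did not pass (adjusted p = 0.14).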

How the data were processed

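Total and polysome mRNA of DMSO and Torin1 cells were sequenced in 12 libraries, 4 groups of 3. Samples were grouped by title. Tools and builds in the submitters' processing notes are HTSeq 0.6.0, STAR 2.7.9a and mm10, without their role. The sources used here do not give how the authors scaled the deposited signal or whether it is per transcript length. All of its nonzero values lay within 0.011 of whole multiples of 1 step per library, and each column held at least 99.99% of the highest number of steps, so a step is a share of the library and not a read. The table held 0 other sample columns.

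Each column was scaled to its total and then by a trimmed mean of log ratios (own code, trimming 0.3 of ratios and 0.05 of abundances at each end). A gene was tested where 3 libraries or more had a deposited value of at least 1. The 4 group means of log2(value + 1) were fitted over the 12 libraries in limma 3.58.1 (R 4.3.3) with a variance trend. Each gene had 1 estimate of spread, shared by its total and polysome libraries. P-values were adjusted by Benjamini-Hochberg over all genes tested, at 0.05. Folds on this scale understate changes of genes at very low values. Libraries were left out with the scaling kept. The fit was tested on simulated data.

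Genes named are the 15 largest rises and 15 largest falls of at least 8 ppm that were called with and without Torin1 replicate 2, with groups apart and no predicted, Rik, pseudogene, antisense or accession names, the 3 largest called members of each of 45 lists with members that moved against the majority, and a fixed set of pathway, identity and reference genes. Further list members are named as such. A few genes that the rule names are not reported here. Members and lists were chosen with earlier results of these data known. Gene spans, level classes, GC content and the windows printed were chosen after the values were seen. Symbols not found in the table were not analysed here. The alternatives tried were a pseudocount of 0.1, 4 scalings, 2 filters, a replicate block, the 6 total libraries alone, single libraries left out and a minimum of 1.5-fold.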

Additional observations from a re-analysis of the deposited data

Results flagged for a closer look

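For 3 of the named genes the Torin1 change differed between polysome and total mRNA by limma's test of that difference. The test did not pair the total and polysome libraries of a lysate. The polysome log2 fold minus the total log2 fold was -1.02 for the poly(A)-binding protein gene Pabpc1 (adjusted p = 0.00172), -1.53 for the ribosomal protein gene Rpl13a (adjusted p = 0.00199) and -1.24 for Rps6 (adjusted p = 0.00435). In total mRNA Pabpc1 rose, and Rpl13a (0.16 ± 0.14) and Rps6 (0.15 ± 0.12) were not called. Ribosomal protein genes have many near-identical copies, so single values of them are uncertain.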

How the results depend on the processing

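Against 669 higher and 844 lower genes, the counts were 329 and 512 when columns were scaled to their totals only, 1063 and 1545 with the 6 total libraries alone, 390 and 265 with a minimum of 1.5-fold, and 327 to 384 and 364 to 489 with 1 total library left out. The minimum fold enters by construction, and for the others the cause was not tested. The other scalings, filters and the pseudocount stayed within 1.5 times both counts. The 146 genes whose change differed between polysome and total mRNA numbered 106 to 115 with a total library left out, and this comparison cannot be made with the total libraries alone. Deviations from the group means correlated at 0.19, 0.20 and -0.06 for DMSO and Torin1 libraries of the same number. For those of different numbers the values ran from -0.33 to 0.23. Deviations from a mean of 3 libraries depend on each other, so whether the replicate numbers pair the samples was not settled. A replicate block gave 562 higher, 722 lower and 148 differing genes, and with the 6 total libraries alone it gave 356 and 473. Of 155 named genes that were called, 94 kept the call whichever total library was left out. Signs turned in 3 cases, all in genes not called: Rptor (-0.0018) and Jun (-0.0055) with scaling to the column total, and Rn7sk (-0.38, in a range up to 2.46 over the libraries left out) without Torin1 replicate 2. Scaling to the column total set the median log2 fold of all genes at -0.034 and to the upper quartile at 0.036. Depth in reads is unknown, so what it limits cannot be given.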
